A study of Homo sapiens with 8 samples.

Results

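Nuclear receptors are transcription factors, many of them switched by a small lipophilic ligand, and the 44 genes described here are the human nuclear receptor family without HNF4A and HNF4G. Members were taken by gene symbol from the protein-coding rows of the expression table, and all 44 had a row among 58735 genes, 19951 of them protein-coding. RNA sequencing had been made of 8 libraries of HepaRG, a human bipotent hepatic progenitor cell line, and of M14A, an edited derivative. M14A printed (2 libraries) were M14A cells with the genotype label FoxM1/HNF4A transfected, suspended in the bioink GP, then printed, with collection 4 h after printing. M14A plate (3 libraries) carried the same genotype label and were grown in culture flasks. HepaRG plate (3 libraries) were wild-type cells grown in culture flasks. Printed material was frozen and ground before RNA extraction and flask cells were detached and spun down, so the effects of printing and of collection cannot be told apart. The labels do not say whether M14A is 1 clone, how the transfected genes are driven, or whether libraries of a group came from separate cultures, so p-values cover no more than the spread among these libraries, which may be technical.

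In liver, a branch of this family senses metabolites and foreign compounds: NR1H4 (FXR) binds bile acids, NR1H2 and NR1H3 (LXR) bind oxysterols, NR1I2 (PXR) and NR1I3 (CAR) respond to drugs, and the PPARs respond to fatty acids. Most of these bind DNA only as a pair with an RXR protein, at repeats of the hexamer AGGTCA. Others are steroid and thyroid hormone receptors, clock repressors, or orphans such as the COUP-TFs that compete with HNF4A for related DNA sites.

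Values are FPKM, which scale reads to gene length and library, so levels can be set beside each other between genes. Whole reads recovered from the values gave depths of 15632154 to 19148262 reads per library, and 1 read on a gene of 1 kb was worth 0.0435 to 0.0747 FPKM. M14A plate library 1 stood apart, with log2 correlations across genes of 0.957 and 0.948 to its replicates, which correlated at 0.988 with each other. Mitochondrial genes held 13.3 and 16.4% of reads in M14A printed, 8.21 to 9.72% in M14A plate and 6.91 to 7.25% in HepaRG plate. HNF4A averaged 15.4 ± 2.50 FPKM in M14A printed (SD, n = 2), 40.9 ± 2.70 FPKM in M14A plate (n = 3) and 6.14 ± 0.423 FPKM in HepaRG plate (n = 3). FOXM1, the other gene named in the genotype label, averaged 10.1 ± 0.0594 FPKM in M14A printed, 10.8 ± 2.06 FPKM in M14A plate and 13.8 ± 0.991 FPKM in HepaRG plate, with M14A plate and HepaRG plate overlapping, so its values do not mark the transfected cells. Summed hepatocyte markers ran at 564 to 586 FPKM in M14A printed, 357 to 516 FPKM in M14A plate and 21.8 to 24.1 FPKM in HepaRG plate, although TTR, TF and AHSG stayed at or below 0.325 FPKM in all 8 libraries. Most of the sum in M14A was SERPINA1, at 438 to 480 FPKM in M14A printed and 262 to 459 FPKM in M14A plate, which overlapped. ALB and APOA1 were higher in both printed libraries than in every M14A plate library. APOB had 17.7 and 34.6 FPKM in M14A printed and 23.4, 72.7 and 65.1 FPKM in M14A plate. Summed biliary and progenitor markers ran at 46.9 to 50.3 FPKM in M14A printed, 26.3 to 62.0 FPKM in M14A plate and 116 to 121 FPKM in HepaRG plate, with EPCAM at 0 in every M14A library. Of 5 tested, 3 were called lower and 1 higher in M14A plate, where 14.7% of all tested genes were called lower and 16.1% higher. KRT7 reached 1 FPKM, the level needed for testing, in M14A libraries alone and CD24 in HepaRG libraries alone. The directions of these genes were thus fixed in advance. KRT7 ran against the sum: HepaRG plate libraries held 0.455 to 0.468 FPKM, M14A plate libraries 1.82 to 2.22 FPKM and printed ones 4.82 to 6.66 FPKM. KRT19 set the top of the M14A plate range, since library 1 held 49.0 FPKM of it and its replicates 11.6 FPKM each. The stellate and fibroblast list summed to 71.6 to 80.4 FPKM in M14A printed, 26.8 to 58.9 FPKM in M14A plate and 18.1 to 20.0 FPKM in HepaRG plate, nearly all from DCN and LUM. Other members of that list went the other way, with PDGFRB at 0.0498 to 0.0877 FPKM in M14A plate and 1.58 to 1.94 FPKM in HepaRG plate and COL1A1 at 0.528 to 1.16 FPKM in M14A plate and 1.80 to 1.98 FPKM in HepaRG plate. Leukocyte markers summed to 9.89 to 11.6 FPKM in M14A printed, 6.52 to 10.6 FPKM in M14A plate and 2.24 to 2.84 FPKM in HepaRG plate. That sum came from LAPTM5 and CD14, both called higher in M14A plate, while PTPRC was at or near 0. Endothelial markers summed to 1.53 to 1.97 FPKM in M14A printed, 1.56 to 2.18 FPKM in M14A plate and 0.885 to 1.12 FPKM in HepaRG plate, with CDH5 at 0 in all 8 libraries. KDR and PECAM1 made up most of it, and KDR was called higher in M14A plate. LAPTM5 (0.714 to 0.846 FPKM) and KDR (0.445 to 0.626 FPKM) stayed below 1 FPKM in HepaRG plate. Both reached the level needed for testing through M14A libraries alone, so their calls are descriptions. The part of these marker differences in the receptor values below was not tested, and in bulk RNA fewer cells of a type and less RNA per cell cannot be told apart.

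Most receptors were weakly expressed. Just 4 averaged at least 10 FPKM over the 8 libraries, 22 averaged 1 to 10 FPKM, and 18 averaged less than 1 FPKM. The most abundant were NR2F6, an orphan receptor of the COUP-TF branch, and ESRRA, an orphan regulator of mitochondrial genes. NR2F6 averaged 61.7 ± 28.7 FPKM in M14A printed, 71.3 ± 27.6 FPKM in M14A plate and 74.7 ± 3.08 FPKM in HepaRG plate. ESRRA averaged 75.6 ± 27.8 FPKM in M14A printed, 69.6 ± 21.1 FPKM in M14A plate and 59.6 ± 1.16 FPKM in HepaRG plate. Neither was called in either comparison in the main fit, and their groups overlapped. With libraries scaled to equal totals, both were called lower in M14A printed than in M14A plate (NR2F6 -0.97, adjusted p = 0.020, and ESRRA -0.64, adjusted p = 0.036). The median of all genes was then -0.51. NR2F6 was also called lower there with quantile normalization (-0.67, adjusted p = 0.045). Between the lines it was called lower in M14A plate with the GC and length trend removed and M14A plate library 1 left out (-0.43, adjusted p = 0.024). The oxysterol receptor NR1H2 ranked next in all 3 groups, at 27.7 ± 8.93 FPKM in M14A printed, 21.1 ± 2.59 FPKM in M14A plate and 26.2 ± 1.95 FPKM in HepaRG plate.

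The test covered the 14349 genes that reached 1 FPKM in 2 or more libraries and was made on log2(FPKM + 1) with limma. Calls were made at a Benjamini-Hochberg adjusted p below 0.05. Adding 1 understates fold changes of low genes. Of the receptors, 30 were tested and 19 of them reached 1 FPKM in all 8 libraries. Among the tested, NR1H4 passed through M14A plate libraries alone and NR4A1 and NR4A2 through printed libraries alone, so these had to be higher there, and NR1I2 and ESRRG passed with no HepaRG library at 1 FPKM. The other 14 were not tested, and none of their values exceeded 0.652 FPKM.

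**Figure D1:**
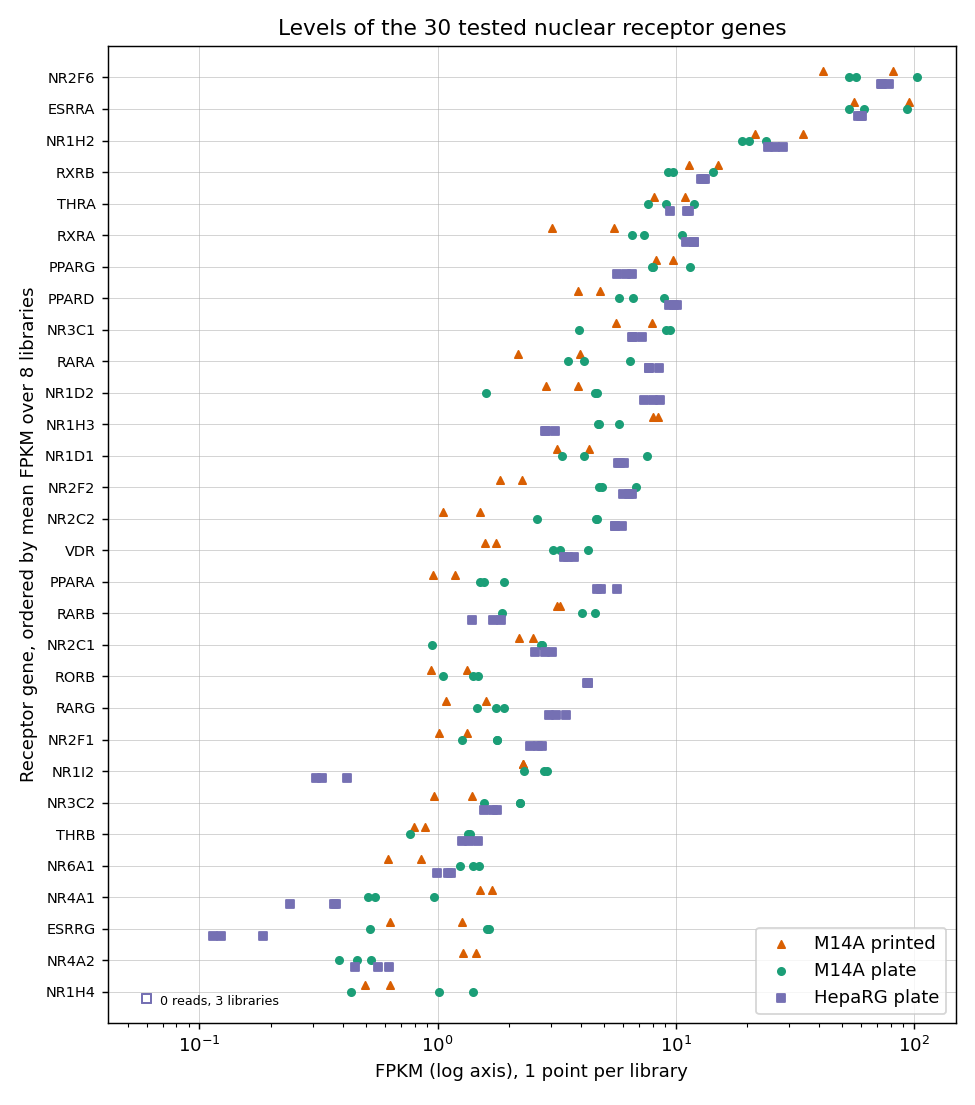
FPKM of the 30 tested receptor genes on a log axis, 1 point per library, with M14A printed as triangles, M14A plate as circles and HepaRG plate as squares. The open square marks NR1H4 in the 3 HepaRG plate libraries, which had 0 reads, and points of NR1I2, ESRRG, PPARA and RORB in HepaRG plate lie apart from both M14A groups.

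Between the flask-grown lines, M14A plate had more NR1I2, NR1H4, NR1H3, ESRRG, RARB and PPARG RNA and less RORB, PPARA, NR1D2, RARA, RARG and NR2F1 RNA than HepaRG plate. That is 6 receptors called higher and 6 called lower of 30, with 18 not called, where 30.9% of all tested genes were called (16.1% higher and 14.7% lower). The share of receptors called was thus near the background. The median log2 fold change was -0.15 over the receptors and -0.04 over all tested genes. For 18 receptors the groups did not overlap, against 53% of all genes. Calls for NR1H3, PPARA, RORB and RARG held in every alternative setting that tested them. So did those of NR1I2, NR1H4 and ESRRG, but these had no HepaRG library at 1 FPKM and passed the filter through M14A libraries, so their counting among those called higher supports nothing. The size of the fitted change varied with the setting, from 0.76 to 7.07 for NR1H4.

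The promoters of those 7 receptors are shown because theirs are the calls between the lines that no setting removed. Each is the 250 bases before the transcription start in RefSeq on GRCh38.p14, 5′ to 3′ on the gene's strand, and 40 of the 44 receptors had an entry (NR0B2, NR2F6, NR4A2 and VDR had none). Capitals mark the receptor hexamer AGGTCA or the GC box GGGCGG on either strand. The first 4 belong to receptors higher in M14A plate and the last 3 to receptors lower there.
NR1I2, chr3:119781851-119782100, plus strand: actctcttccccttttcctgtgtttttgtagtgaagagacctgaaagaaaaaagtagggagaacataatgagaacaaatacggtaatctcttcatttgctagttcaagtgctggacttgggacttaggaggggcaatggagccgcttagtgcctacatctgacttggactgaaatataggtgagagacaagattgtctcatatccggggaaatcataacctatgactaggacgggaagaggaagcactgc
NR1H4, chr12:100503110-100503359, plus strand: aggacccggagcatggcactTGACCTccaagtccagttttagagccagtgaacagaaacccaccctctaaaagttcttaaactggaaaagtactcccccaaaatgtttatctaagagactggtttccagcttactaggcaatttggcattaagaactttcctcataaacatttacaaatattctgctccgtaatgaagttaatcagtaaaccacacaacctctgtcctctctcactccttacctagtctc
NR1H3, chr11:47248050-47248299, plus strand: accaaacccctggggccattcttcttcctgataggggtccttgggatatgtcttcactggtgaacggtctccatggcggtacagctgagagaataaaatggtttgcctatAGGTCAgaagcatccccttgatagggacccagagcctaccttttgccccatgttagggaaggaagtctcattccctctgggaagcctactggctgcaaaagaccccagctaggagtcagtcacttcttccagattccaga
ESRRG, chr1:217137703-217137952, minus strand: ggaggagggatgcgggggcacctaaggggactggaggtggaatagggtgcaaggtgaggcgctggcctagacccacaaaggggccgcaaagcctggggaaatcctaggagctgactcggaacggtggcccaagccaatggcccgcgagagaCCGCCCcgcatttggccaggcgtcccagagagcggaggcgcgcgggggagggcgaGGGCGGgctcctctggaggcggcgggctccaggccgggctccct
PPARA, chr22:46150276-46150525, plus strand: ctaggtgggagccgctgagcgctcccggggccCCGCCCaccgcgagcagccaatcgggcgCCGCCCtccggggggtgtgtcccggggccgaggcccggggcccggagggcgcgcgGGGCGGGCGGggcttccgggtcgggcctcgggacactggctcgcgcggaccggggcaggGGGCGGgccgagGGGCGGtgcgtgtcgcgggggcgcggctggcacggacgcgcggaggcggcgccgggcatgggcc
RORB, chr9:74497085-74497334, plus strand: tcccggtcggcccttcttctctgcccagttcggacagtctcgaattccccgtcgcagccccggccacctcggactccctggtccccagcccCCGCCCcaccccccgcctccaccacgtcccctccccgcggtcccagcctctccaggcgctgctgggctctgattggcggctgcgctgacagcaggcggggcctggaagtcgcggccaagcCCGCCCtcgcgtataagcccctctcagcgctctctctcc
RARG, chr12:53232210-53232459, minus strand: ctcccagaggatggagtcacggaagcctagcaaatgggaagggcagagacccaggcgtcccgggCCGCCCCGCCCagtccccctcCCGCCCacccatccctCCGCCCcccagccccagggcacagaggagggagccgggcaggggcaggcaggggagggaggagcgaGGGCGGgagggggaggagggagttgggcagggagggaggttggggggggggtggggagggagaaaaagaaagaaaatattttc

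The windows differed widely in base composition. GC content was 44% for NR1I2, 42.0% for NR1H4, 51.6% for NR1H3 and 70.4% for ESRRG, with 4, 2, 2 and 19 CpG dinucleotides. It was 84.4% for PPARA, 72.0% for RORB and 69.6% for RARG, with 41, 23 and 10 CpG dinucleotides. The median was 59.4% over the 40 receptor windows and 58.0% over all 27305 promoters in the table. The hexamer began at -230 in NR1H4 and at -140 in NR1H3, counted from the start, and it was present in 7 of 40 receptor promoters and in 12.1% of all promoters. The GC box occurred 6 times in PPARA, 5 times in RARG, and 2 times each in RORB and ESRRG, including overlapping copies, against 21 of 40 receptor promoters and 42.3% of all promoters with at least 1. Searches on both strands for the hexamer repeats AGGTCANAGGTCA and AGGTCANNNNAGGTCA and for CAAAGTCCA, letters known from HNF4A-bound sequences, found no match in the 40 receptor windows, and 0.0183, 0.0146 and 0.293% of all promoters held them. The RefSeq start used lies 29652 bases downstream of the gene start in the expression table for NR1H4, 1617 for NR1I2 and 771 for RARG, and which start these cells use was not measured.

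Among the metabolite and xenobiotic sensors, 5 of 6 were tested and 3 were called higher in M14A plate, with none called lower, where 16.1% of all genes were called higher. Of these, NR1I2 and NR1H4 had entered the test through M14A libraries. NR1I2, the xenobiotic receptor that induces CYP3A genes (ENSG00000144852, chr3:119780484-119818485, GRCh38), had 2.28 and 2.29 FPKM in M14A printed, 2.87, 2.79 and 2.30 FPKM in M14A plate, and 0.414, 0.307 and 0.328 FPKM in HepaRG plate. Every M14A library was above every HepaRG library. Its M14A plate mean was 7.59 times the HepaRG mean (log2 fold change 1.43, SE 0.11, adjusted p = 2.9e-05). No other receptor of the 30 had a larger log2 fold change between the lines on this scale. After printing it was 0.861 times the plate mean and was not called (-0.15, 95% interval -0.44 to 0.13, adjusted p = 0.39).

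NR1H4, the bile acid receptor (ENSG00000012504, chr12:100473708-100564413), had no read in any HepaRG library. Its level was 0.494 and 0.629 FPKM in M14A printed, 0.431, 1.02 and 1.41 FPKM in M14A plate, and 0 in all 3 HepaRG plate libraries. These rest on 61 reads in M14A printed, 198 in M14A plate and 0 in HepaRG plate. Against a floor of 3 reads over the whole HepaRG group, the level was at least 71.9-fold higher in M14A plate and at least 42.3-fold higher in M14A printed. The fitted log2 fold change between the lines was 0.93 (SE 0.19), given as a description since NR1H4 was tested only through its M14A plate libraries. With no filter, where the 36423 genes with a read in any library were tested, its adjusted p was 0.018. NR1H4 again entered through M14A libraries alone, so this value is a description too. Printed and plate libraries overlapped (-0.29, interval -0.77 to 0.18, adjusted p = 0.31). Without M14A plate library 1, its lowest plate library, NR1H4 was called lower in M14A printed (-0.50, adjusted p = 0.018).

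NR1H3, the oxysterol receptor LXR alpha (ENSG00000025434, chr11:47248300-47269032), was called higher in both comparisons. It had 8.42 and 8.03 FPKM in M14A printed, 5.77, 4.72 and 4.76 FPKM in M14A plate, and 2.86, 2.81 and 3.10 FPKM in HepaRG plate. No group overlapped another. The log2 fold change was 0.63 for M14A plate over HepaRG plate (SE 0.11, adjusted p = 0.0035) and 0.60 for M14A printed over M14A plate (SE 0.13, adjusted p = 0.0082). The call after printing was lost without M14A printed library 1 (0.57, adjusted p = 0.054) and when only those 2 groups were fitted (adjusted p = 0.073), and with libraries scaled to equal totals the value was -0.055 where the median of all genes was -0.51. Its paralog NR1H2 was not called in either comparison (-0.30, adjusted p = 0.23, between the lines, and 0.35, adjusted p = 0.22, after printing). It was called higher in M14A printed without M14A printed library 2 (0.67, adjusted p = 0.049), and with each library's trend with GC content and length removed it was called in both comparisons (-0.41, adjusted p = 0.010, between the lines, and 0.38, adjusted p = 0.021, after printing). The ratio of NR1H3 to NR1H2 was 0.247 and 0.375 in M14A printed, 0.241, 0.232 and 0.252 in M14A plate, and 0.110, 0.116 and 0.110 in HepaRG plate.

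VDR, the vitamin D receptor, differed after printing and not between the lines. Its levels were 1.75 and 1.58 FPKM in M14A printed, 4.29, 3.26 and 3.05 FPKM in M14A plate, and 3.53, 3.74 and 3.40 FPKM in HepaRG plate. Both printed libraries lay below all 6 flask libraries. VDR fell in M14A printed by 0.76 on the log2 scale (SE 0.14, adjusted p = 0.0052), at 0.471 times the plate mean, a call lost when only the compared groups were fitted (adjusted p = 0.051). The line difference was -0.02 (interval -0.31 to 0.28, adjusted p = 0.94). NR1I3, the other xenobiotic receptor of liver, was too low to test at 0.271 and 0.280 FPKM in M14A printed, 0.189, 0.108 and 0.307 FPKM in M14A plate, and 0.193, 0.118 and 0.101 FPKM in HepaRG plate, and 20.0% of its exon bases lie in other genes, mainly TOMM40L on the opposite strand.

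The genes that these sensors are known to regulate were read from lists, of which only some members reached the filter. Each count, here and for the later lists, stands against 16.1% of all genes called higher and 14.7% lower between the lines, and 17.7% higher and 15.5% lower after printing. A list gene could pass the filter only through the group where it was high, and its direction was then fixed in advance. Of 14 listed PXR and CAR targets, 7 were tested; between the lines 3 were higher and 1 lower in M14A plate (median log2 fold change 0.25). The drug efflux pump ABCB1 averaged 7.33 ± 2.06 FPKM in M14A plate and 1.96 ± 0.156 FPKM in HepaRG plate (1.46, SE 0.21, adjusted p = 8.7e-04), CYP3A5 rose by 0.95 on the log2 scale (adjusted p = 0.028), and the glutathione transferase GSTA2 fell to 0.877 ± 0.130 FPKM in M14A plate, against 3.20 ± 0.203 FPKM in HepaRG plate (-1.16, SE 0.14, adjusted p = 3.0e-04). After printing, 1 of the 7 was called, GSTA2, which was higher at 2.30 ± 0.672 FPKM in M14A printed (0.80, adjusted p = 0.0053; the call was lost at 0.34 both with equal totals, adjusted p = 0.080, and with the GC and length trend removed, adjusted p = 0.21), and the median was -0.12. Of 14 bile acid genes linked to FXR, 4 were tested and 3 were higher in M14A plate (median 0.72), where 16.1% of all genes were. SLC51B, a chain of the basolateral bile acid exporter, averaged 5.49 ± 1.38 FPKM in M14A plate and 0.277 ± 0.104 FPKM in HepaRG plate (2.33, SE 0.16, adjusted p = 1.5e-05), and CYP27A1 and the phospholipid floppase ABCB4 each rose by 0.72 (adjusted p = 0.0024 and 0.0044). SLC51B lay below the filter level in HepaRG plate and passed through M14A libraries, so its call between the lines is a description. In M14A printed, SLC51B averaged 10.3 ± 0.136 FPKM (0.82, adjusted p = 0.0099 against M14A plate) and CYP27A1 49.3 ± 6.25 FPKM against 29.1 ± 1.00 FPKM in M14A plate (0.73, adjusted p = 0.0049). NR0B2 (SHP), the corepressor that FXR induces in liver, had 2 reads in M14A printed, 7 in M14A plate and 4 in HepaRG plate in all.

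LXR and vitamin D lists held few called genes. Of 9 tested LXR targets, MYLIP alone was called between the lines (-0.42, adjusted p = 0.030), with a list median of 0.04. After printing, FASN, the fatty acid synthase, averaged 87.4 ± 49.4 FPKM in M14A printed and 237 ± 90.1 FPKM in M14A plate (-1.49, SE 0.37, adjusted p = 0.016), MYLIP was higher (0.41, adjusted p = 0.045), and the median was 0.02. Of 4 tested vitamin D genes, IGFBP3 was called in both comparisons, at 37.2 ± 0.457 FPKM in M14A printed, 20.2 ± 6.42 FPKM in M14A plate and 3.51 ± 0.347 FPKM in HepaRG plate (0.89, adjusted p = 0.015, after printing, and 2.19, adjusted p = 6.5e-05, between the lines).

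Of the 3 fatty acid sensors, PPARA was lower and PPARG higher in M14A plate when set against HepaRG plate, and their proportions differed. PPARA, which drives fatty acid oxidation in hepatocytes (ENSG00000186951, chr22:46150521-46243756), had 0.955 and 1.19 FPKM in M14A printed, 1.51, 1.91 and 1.56 FPKM in M14A plate, and 4.66, 5.68 and 4.83 FPKM in HepaRG plate. All M14A libraries lay below all HepaRG libraries. PPARA fell in M14A plate by 1.19 on the log2 scale (SE 0.12, adjusted p = 1.4e-04), and the HepaRG mean was 3.05 times the M14A plate mean. Printed libraries lay below the plate libraries, with a difference of -0.36 that was not called (interval -0.67 to -0.05, adjusted p = 0.072). It was called without M14A plate library 1 (-0.40, adjusted p = 0.025).

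PPARG, best known from adipocytes, had 9.75 and 8.24 FPKM in M14A printed, 11.5, 7.95 and 8.01 FPKM in M14A plate, and 5.68, 6.20 and 6.53 FPKM in HepaRG plate. It was higher in M14A plate without overlap (0.49, SE 0.16, adjusted p = 0.044), but the call was lost in 9 of 20 alternatives, among them those without any 1 of the HepaRG plate libraries (0.45 to 0.53, adjusted p 0.097 to 0.16) and those without either printed library (adjusted p = 0.057). PPARG made up 62.9 and 61.8% of summed PPAR FPKM in M14A printed, 52.5, 48.3 and 52.2% in M14A plate, and 28.1, 29.2 and 30.4% in HepaRG plate. PPARA made up 6.16 and 8.89% of the sum in M14A printed, 6.89, 11.6 and 10.2% in M14A plate, and 23.1, 26.7 and 22.5% in HepaRG plate. The M14A and HepaRG shares did not overlap for either gene.

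PPARD, the broadly expressed member, had 4.79 and 3.90 FPKM in M14A printed, 8.90, 6.59 and 5.77 FPKM in M14A plate, and 9.85, 9.37 and 10.1 FPKM in HepaRG plate. The 3 groups did not overlap. It was lower in M14A printed than in M14A plate (-0.58, SE 0.18, adjusted p = 0.034), a call lost without either printed library (-0.70 and -0.46, adjusted p = 0.070 and 0.19), without M14A plate library 2, and without any 1 of the HepaRG plate libraries (adjusted p 0.063 to 0.064). Between the lines it was not called (-0.43, interval -0.79 to -0.07, adjusted p = 0.069), and it was called without M14A plate library 1 (-0.59, adjusted p = 0.0028).

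Between the lines, 5 of 18 tested PPAR targets were higher in M14A plate and 3 lower, with a median of 0.09. VNN1, a pantetheinase, averaged 48.4 ± 28.1 FPKM in M14A plate and 2.21 ± 0.482 FPKM in HepaRG plate (3.71, SE 0.46, adjusted p = 4.4e-04). CD36, a fatty acid transporter, averaged 0.684 ± 0.200 FPKM in M14A plate and 12.7 ± 0.765 FPKM in HepaRG plate (-3.03, SE 0.12, adjusted p = 8.1e-07), and the hormone gene FGF21 averaged 0.0417 ± 0.00508 FPKM in M14A plate and 5.23 ± 0.723 FPKM in HepaRG plate (-2.57, SE 0.14, adjusted p = 3.8e-06). CD36 and FGF21 lay below the filter level in M14A plate and reached it in HepaRG plate, so their calls are descriptions. After printing, 2 of the targets were higher and 1 was lower, with a median of 0.13. CPT1A, the entry enzyme of mitochondrial fatty acid oxidation, averaged 8.91 ± 2.08 FPKM in M14A printed and 20.8 ± 6.66 FPKM in M14A plate (-1.11, SE 0.24, adjusted p = 0.0094), whereas the oxidation enzymes ACADM (0.78, adjusted p = 0.023) and ACAA2 (0.69, adjusted p = 0.016) were higher.

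RXRA and RXRB, the shared partners of these receptors, were the 2 RXR genes tested. RXRA had 5.53 and 3.01 FPKM in M14A printed, 10.6, 7.33 and 6.52 FPKM in M14A plate, and 11.0, 11.9 and 12 FPKM in HepaRG plate. No group overlapped another. RXRA fell in M14A printed by 0.82 on the log2 scale (SE 0.24, adjusted p = 0.032), and the call was lost without M14A printed library 2 (-0.46, adjusted p = 0.23), without M14A plate library 2 or any 1 of the HepaRG plate libraries (adjusted p 0.055 to 0.056), and after removal of each library's trend with GC content and length (-0.36, adjusted p = 0.067). The line difference of -0.49 was not called (adjusted p = 0.12), and without M14A plate library 1 it was -0.67 (adjusted p = 0.026). RXRB lay between 9.24 and 15.1 FPKM in all 8 libraries, overlapped in both comparisons and was not called (0.25 after printing, -0.24 between the lines). Without M14A plate library 1, RXRB was called higher in M14A printed (0.43, adjusted p = 0.021) and, between the lines, lower in M14A plate (-0.42, adjusted p = 0.022), as it was with the GC and length trend removed (adjusted p = 0.041 and 0.0056), whereas with equal totals it was called lower in M14A printed (-0.45, adjusted p = 0.021). RXRG had 16, 11 and 5 reads in M14A printed, M14A plate and HepaRG plate.

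**Figure D2:**
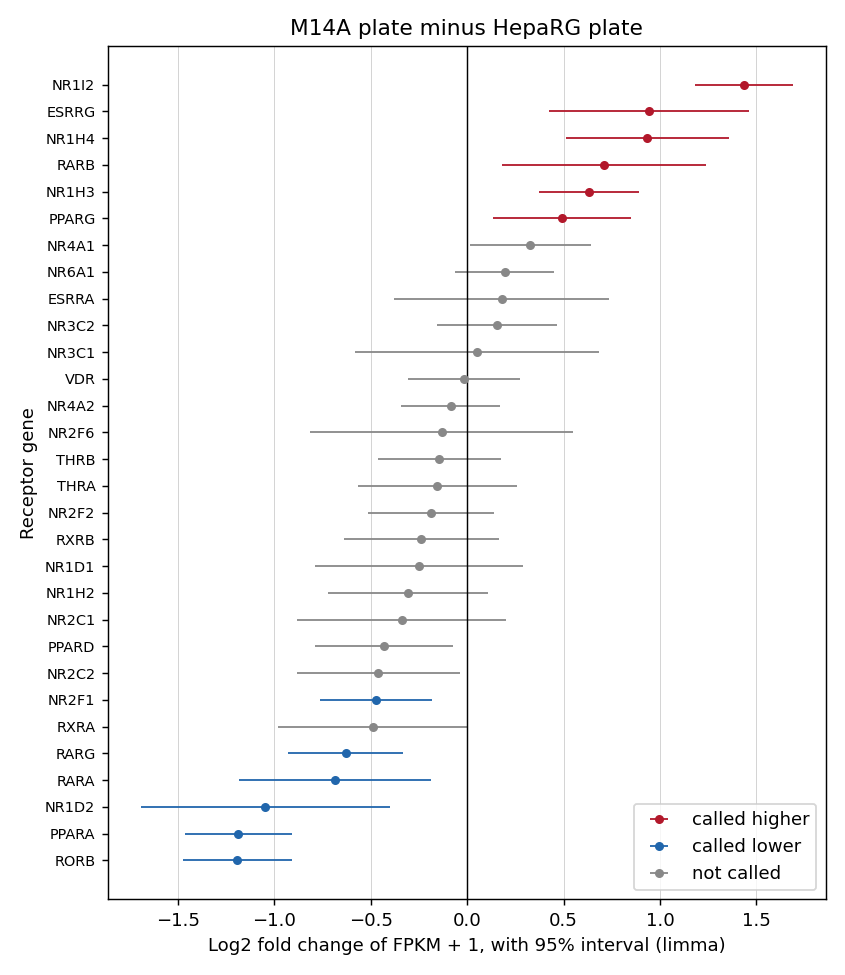
Log2 fold change of FPKM + 1 for the 30 tested receptors, M14A plate minus HepaRG plate, with the limma 95% interval as a bar. The 6 genes called higher run up to NR1I2 at 1.43, and the 6 called lower run down to RORB and PPARA at -1.19.

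The 3 retinoic acid receptors split by type. RARB, itself a classical retinoic acid target, had 3.17 and 3.25 FPKM in M14A printed, 1.86, 4.04 and 4.59 FPKM in M14A plate, and 1.85, 1.71 and 1.40 FPKM in HepaRG plate. M14A plate library 1 was just above the highest HepaRG library, and its replicates were over 4 FPKM. RARB was called higher in M14A plate (0.71, SE 0.23, adjusted p = 0.048), a call lost in 12 of 19 alternatives, including those that left out any library other than M14A plate library 1 (adjusted p 0.073 to 0.15). Without that library the value was 1.01 (adjusted p = 2.3e-04), and RARB was then called lower in M14A printed (-0.33, adjusted p = 0.034).

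RARA had 3.95 and 2.18 FPKM in M14A printed, 6.46, 4.12 and 3.53 FPKM in M14A plate, and 7.69, 7.72 and 8.49 FPKM in HepaRG plate. It was lower in M14A plate without overlap (-0.68, SE 0.22, adjusted p = 0.044), and the call was lost without M14A plate library 2 or 3 or any 1 of the HepaRG plate libraries (-0.54 to -0.71, adjusted p 0.11 to 0.13). Other genes cover 17.9% of its exon bases, mainly RARA-AS1 on the opposite strand, and without a stated strand setting the reads of both genes cannot be told apart. RARG had 1.60 and 1.08 FPKM in M14A printed, 1.90, 1.76 and 1.46 FPKM in M14A plate, and 2.94, 3.13 and 3.47 FPKM in HepaRG plate. All M14A libraries were below all HepaRG libraries, and RARG fell in M14A plate by 0.63 on the log2 scale (SE 0.13, adjusted p = 0.0069). Neither gene was called after printing (-0.49, adjusted p = 0.16, for RARA and -0.21, adjusted p = 0.29, for RARG).

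The thyroid hormone receptors THRA and THRB were not called in either comparison. THRA ran from 7.62 to 12 FPKM and THRB from 0.765 to 1.48 FPKM over the 8 libraries, and groups overlapped for both. The differences between the lines were -0.16 (interval -0.57 to 0.26) and -0.14 (-0.46 to 0.18), and those after printing 0.00 (-0.46 to 0.46) and -0.22 (-0.57 to 0.14). THRB was called lower in M14A printed without M14A plate library 1 (-0.35, adjusted p = 0.018). THRA and NR1D1 overlap at their 3′ ends on opposite strands, in 3.78% of the exon bases of THRA and 9.49% of those of NR1D1.

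Of 7 tested retinoid handling and RAR target genes, 4 were higher and 1 was lower in M14A plate (median 0.50). The retinaldehyde reductase DHRS3 averaged 15.2 ± 5.82 FPKM in M14A plate and 3.95 ± 0.548 FPKM in HepaRG plate (1.66, SE 0.23, adjusted p = 7.4e-04). The transglutaminase TGM2 rose by 1.52 (adjusted p = 0.0016) and the retinaldehyde dehydrogenase ALDH1A1 by 1.43 (adjusted p = 4.2e-04), whereas the retinoic acid binding protein CRABP2, named after its values were seen as the lone fall, fell by 1.11 (adjusted p = 0.0018). After printing, 2 were higher and 2 lower (median 0.43): RBP4, the plasma retinol carrier, averaged 126 ± 9.46 FPKM in M14A printed and 61.4 ± 12.4 FPKM in M14A plate (1.04, SE 0.18, adjusted p = 0.0034), ALDH1A1 rose by 0.60 (adjusted p = 0.045), and the retinoic acid hydroxylase CYP26B1 averaged 1.83 ± 0.219 FPKM in M14A printed and 4.49 ± 0.594 FPKM in M14A plate (-0.95, SE 0.14, adjusted p = 0.0017). Of 4 tested thyroid hormone genes, 3 were lower in M14A plate (median -1.03), among them the corepressor HR (-1.98, adjusted p = 3.1e-06) and the deiodinase DIO2 (-1.53, adjusted p = 1.2e-04), and KLF9 alone was called after printing (-0.94, adjusted p = 0.015; median -0.01).

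Steroid receptors were led by NR3C1, the glucocorticoid receptor, which had 5.64 and 7.97 FPKM in M14A printed, 3.92, 9.50 and 9.12 FPKM in M14A plate, and 6.56, 7.19 and 6.60 FPKM in HepaRG plate. M14A plate library 1 was the lowest of all 8 and its replicates the highest. NR3C1 was not called between the lines (0.05, interval -0.58 to 0.68, adjusted p = 0.91) or after printing (-0.06, -0.77 to 0.65, adjusted p = 0.90). Without that library both were called, at 0.41 (adjusted p = 0.038) and -0.42 (adjusted p = 0.038). NR3C2, the mineralocorticoid receptor, had 0.961 and 1.40 FPKM in M14A printed, 1.57, 2.22 and 2.22 FPKM in M14A plate, and 1.71, 1.78 and 1.56 FPKM in HepaRG plate, and was called lower after printing (-0.46, SE 0.15, adjusted p = 0.047). That call was lost in 12 of 19 alternatives, which include leaving out any library other than M14A plate library 1 (adjusted p 0.058 to 0.27). ESR1, ESR2 and PGR were below the filter, with PGR at 0.223 to 0.652 FPKM, ESR1 at 42, 130 and 65 reads and ESR2 at 7, 34 and 26 reads in M14A printed, M14A plate and HepaRG plate.

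Of 10 tested glucocorticoid receptor targets, 6 were called higher and 1 lower between the lines, with a median of 0.92, where 16.1% of all genes were called higher and the median was -0.04. HSD11B1, which regenerates active glucocorticoid, averaged 14.6 ± 4.45 FPKM in M14A plate and 0.258 ± 0.101 FPKM in HepaRG plate (3.59, SE 0.21, adjusted p = 5.9e-06). It lay below the filter level in HepaRG plate and passed through M14A libraries, so its call is a description. The metallothionein MT2A rose by 2.65 (adjusted p = 2.5e-05) and the kinase SGK1 by 1.30 (adjusted p = 2.6e-05). After printing, 1 was higher and 4 were lower (median -0.20). PER1 averaged 6.78 ± 1.31 FPKM in M14A printed and 15.2 ± 2.96 FPKM in M14A plate (-1.05, SE 0.18, adjusted p = 0.0035), ZBTB16 fell by 0.95 (adjusted p = 0.0031) and KLF9 by 0.94 (adjusted p = 0.015). Of 5 tested estrogen receptor targets, CA12 alone was called between the lines (1.14, adjusted p = 5.2e-04; median -0.18) and none after printing (median -0.15), where the most abundant, IGFBP4, averaged 212 ± 78.2 FPKM in M14A printed and 176 ± 39.4 FPKM in M14A plate (0.24, adjusted p = 0.49).

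ESRRG, an orphan receptor of oxidative tissues (ENSG00000196482, chr1:216503246-217137755), had 0.630 and 1.26 FPKM in M14A printed, 0.522, 1.62 and 1.64 FPKM in M14A plate, and 0.185, 0.124 and 0.114 FPKM in HepaRG plate. Every M14A library exceeded every HepaRG library, and the M14A plate mean was 8.95 times the HepaRG mean (log2 fold change 0.94, SE 0.23, adjusted p = 0.014). These values are a description, since ESRRG passed the filter through M14A libraries alone. Library 1 of both M14A groups was the lowest of its group, and the printed and plate groups overlapped (-0.19, interval -0.77 to 0.39, adjusted p = 0.60). ESRRB had 0, 3 and 2 reads in M14A printed, M14A plate and HepaRG plate. PPARGC1A, the coactivator of ESRR and PPAR proteins, averaged 3.95 ± 1.27 FPKM in M14A plate and 7.89 ± 0.699 FPKM in HepaRG plate (-0.88, SE 0.21, adjusted p = 0.014).

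Of the 4 clock receptors, 3 were tested, and RORB and NR1D2 were called lower in M14A plate. RORB, an activator studied mainly in brain and retina (ENSG00000198963, chr9:74497365-74693177), had 0.935 and 1.33 FPKM in M14A printed, 1.05, 1.41 and 1.48 FPKM in M14A plate, and 4.24, 4.27 and 4.29 FPKM in HepaRG plate. The HepaRG libraries agreed closely and were all above the M14A libraries, and RORB fell in M14A plate by 1.19 on the log2 scale (SE 0.12, adjusted p = 1.6e-04; the HepaRG mean was 3.25 times the M14A mean). After printing it was not called (-0.12, interval -0.44 to 0.20, adjusted p = 0.55). RORA, its paralog, was below the filter at 0.169 to 0.379 FPKM.

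NR1D2 (REV-ERB beta), a repressor of the clock gene BMAL1, had 2.85 and 3.89 FPKM in M14A printed, 1.59, 4.57 and 4.66 FPKM in M14A plate, and 8.57, 8.01 and 7.38 FPKM in HepaRG plate. All M14A libraries lay below all HepaRG libraries (-1.05, SE 0.28, adjusted p = 0.023). Without M14A plate library 1 the difference was -0.68 (adjusted p = 0.0031), and without HepaRG plate library 1, 2 or 3 it was not called (-1.0 to -1.1, adjusted p 0.057 to 0.079). Without M14A plate library 1, NR1D2 was also called lower in M14A printed (-0.37, adjusted p = 0.040). NR1D1 (REV-ERB alpha), which shares that role, had 4.34 and 3.18 FPKM in M14A printed, 7.59, 4.14 and 3.32 FPKM in M14A plate, and 6.03, 5.81 and 5.70 FPKM in HepaRG plate, and was called in neither comparison (-0.28 after printing and -0.25 between the lines). Its M14A plate library 1 was the highest of all and its replicates were below HepaRG plate, so that without this library it was called lower (-0.54, adjusted p = 0.012). In that library the ratio of NR1D1 to NR1D2 was 4.77, against 1.52 and 0.818 in M14A printed, 0.906 and 0.712 in the other M14A plate libraries, and 0.704 to 0.773 in HepaRG plate.

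Of 14 other core clock and clock output genes tested, 7 were called lower in M14A plate, 7 were not called and none was higher (median -0.42), where 14.7% of all genes were called lower. PER3 averaged 0.973 ± 0.121 FPKM in M14A plate and 4.01 ± 0.278 FPKM in HepaRG plate (-1.34, SE 0.11, adjusted p = 3.5e-05), TEF fell by 1.25 (adjusted p = 0.0014) and CLOCK by 0.71 (adjusted p = 0.045). After printing, PER1 and CRY2 (-0.91, adjusted p = 0.015) were lower and none was higher (median -0.27), where 15.5% of all genes were called lower and 17.7% higher. The time of day of collection is not given in the sources used here.

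**Figure D3:**
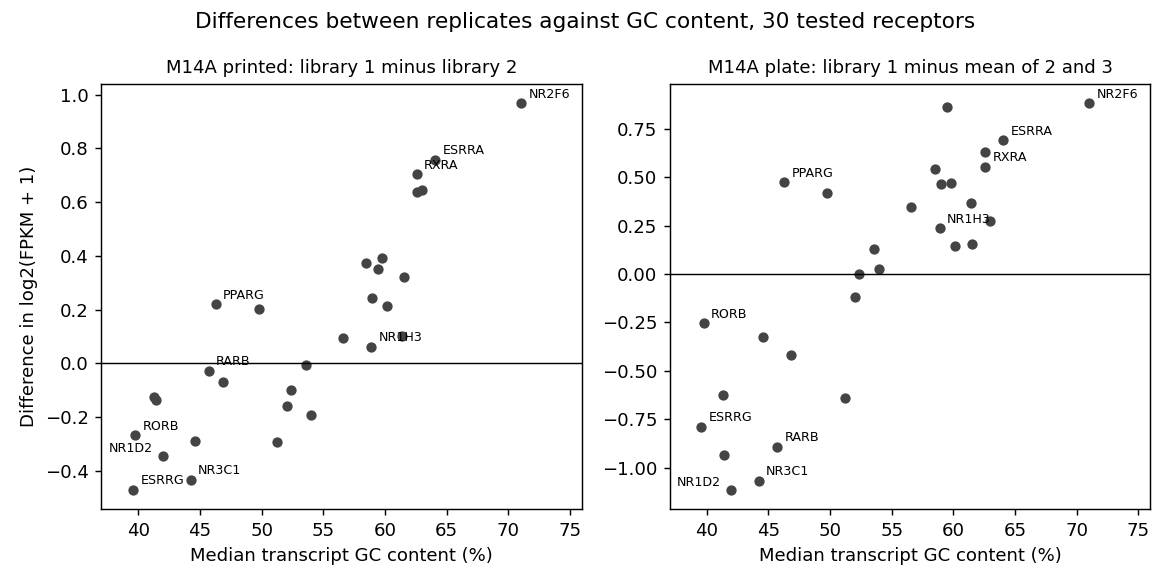
Difference in log2(FPKM + 1) between replicates against the median GC content of each gene's transcripts, for the 30 tested receptors. Left, M14A printed library 1 minus library 2, and right, M14A plate library 1 minus the mean of libraries 2 and 3: GC-rich receptors such as NR2F6 were higher in library 1 and GC-poor ones such as NR1D2 and NR3C1 lower.

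Several of these dependencies on a single library went with base composition. Across the 30 tested receptors, the difference between M14A plate library 1 and the mean of its replicates correlated with transcript GC content at r = 0.826, and across 14337 tested genes at r = 0.624. Between the 2 printed libraries the values were 0.851 and 0.524. These are correlations across genes of the same libraries, which are not independent replicates. NR1D2, at 42.0% GC, and NR3C1, at 44.2%, were low in M14A plate library 1, and NR2F6, at 71.0%, and ESRRA, at 64.1%, were high there. Without that library, 7 receptors were called higher and 11 lower between the lines, and 4 higher and 13 lower after printing. Leaving out a single library turned the sign of 4 uncalled receptors between the lines and of 11 after printing, and of no called receptor. With the GC and length trend removed, RXRA, PPARD, NR1D1, NR3C2 and NR4A1 were called between the lines as well as NR1H2 and RXRB, and NR1D1 and NR1H4 after printing as well as those 2.

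In the comparison of M14A printed with M14A plate, NR4A2, NR4A1 and NR1H3 were higher and NR2C2, NR2F2, RXRA, VDR, PPARD, NR3C2 and NR6A1 were lower. Thus 3 receptors were called higher, of which NR4A1 and NR4A2 had passed the filter through printed libraries alone, 7 lower and 20 not called, where 33.2% of all tested genes were called (17.7% higher and 15.5% lower), so the share of receptors called was again near the background. The median log2 fold change was -0.20 over the receptors and 0.01 over all tested genes. For 12 receptors the groups did not overlap, against 51.3% of all genes. Since the M14A plate libraries serve in both comparisons, the 2 sets of changes were not related to each other. Scaling all libraries to equal totals moved the median of all genes to -0.51 and left 6.96% of called genes higher, against 53.3% in the deposited scaling, and no receptor was then called higher. Calls of NR2C2 and NR2F2 held in every alternative.

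**Figure D4:**
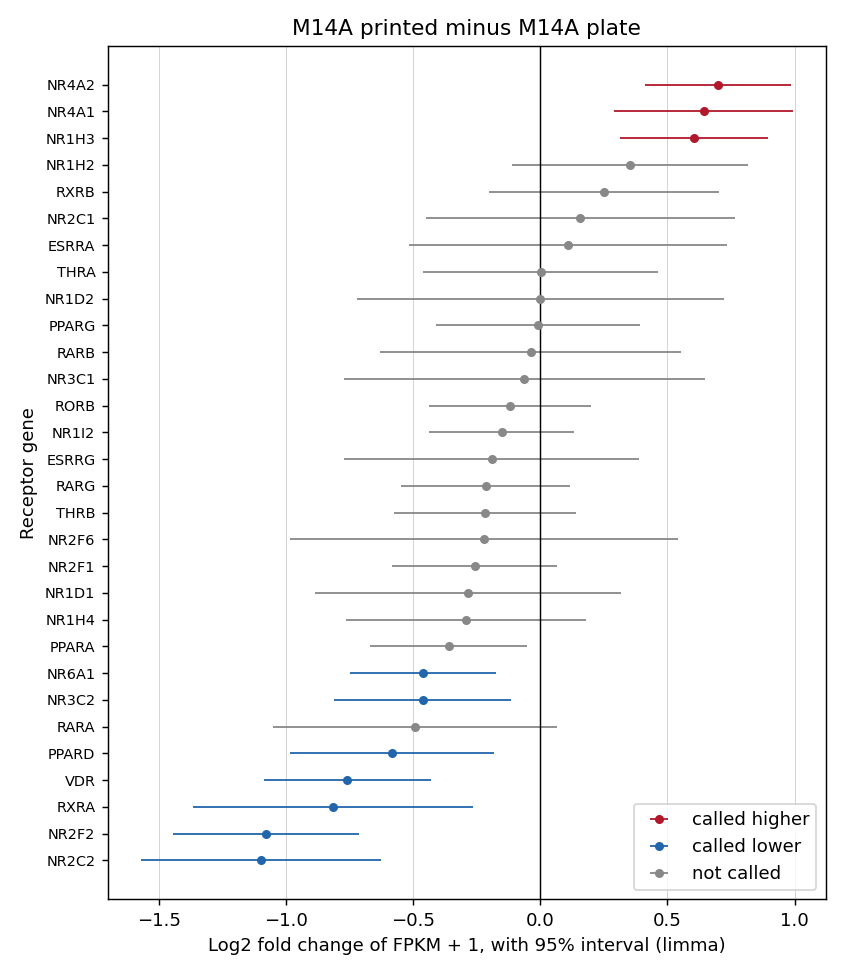
Log2 fold change of FPKM + 1 for the 30 tested receptors, M14A printed minus M14A plate, with the limma 95% interval as a bar. NR4A2, NR4A1 and NR1H3 lie at 0.70, 0.64 and 0.60, and NR2C2 and NR2F2 lie lowest at -1.10 and -1.08.

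The largest falls after printing were in orphan receptors of the NR2 class. NR2C2 (TR4) had 1.05 and 1.51 FPKM in M14A printed, 2.62, 4.61 and 4.66 FPKM in M14A plate, and 5.54, 5.97 and 5.55 FPKM in HepaRG plate. The 3 groups did not overlap. NR2C2 fell in M14A printed by 1.10 on the log2 scale (SE 0.21, adjusted p = 0.0051), with a plate mean 3.09 times the printed mean. Other genes, mainly MRPS25 on the opposite strand, cover 11.4% of its exon bases. Its paralog NR2C1 (TR2) was not called (0.16, interval -0.45 to 0.76), with 2.20 and 2.51 FPKM in M14A printed, 0.949, 2.75 and 2.71 FPKM in M14A plate, and 3.02, 2.57 and 2.83 FPKM in HepaRG plate. Without M14A plate library 1, the lowest of all, the value turned to -0.15 (adjusted p = 0.20).

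NR2F2 (COUP-TFII; ENSG00000185551, chr15:96325938-96340263) had 2.26 and 1.83 FPKM in M14A printed, 6.78, 4.88 and 4.76 FPKM in M14A plate, and 6.34, 6.01 and 6.54 FPKM in HepaRG plate. Both printed libraries lay below all 6 flask libraries, while the flask groups overlapped. It was lower in M14A printed (log2 fold change -1.08, SE 0.16, adjusted p = 0.0020), and the line difference was -0.19 (interval -0.51 to 0.14, adjusted p = 0.35), or -0.33 and called without M14A plate library 1 (adjusted p = 0.018). NR2F1 (COUP-TFI) had 1.33 and 1.01 FPKM in M14A printed, 1.77, 1.78 and 1.26 FPKM in M14A plate, and 2.63, 2.73 and 2.44 FPKM in HepaRG plate. Between the lines it was lower in M14A plate without overlap (-0.47, SE 0.13, adjusted p = 0.023), a call lost without M14A plate library 3 (-0.37, adjusted p = 0.059) or any 1 of the HepaRG plate libraries (-0.45 to -0.51, adjusted p 0.061 to 0.089), and it was not called after printing (-0.26, adjusted p = 0.20). NR2E1 had no read in any library, and NR2E3 had 1, 0 and 3 reads in M14A printed, M14A plate and HepaRG plate.

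NR6A1 (germ cell nuclear factor) had 0.619 and 0.848 FPKM in M14A printed, 1.41, 1.5 and 1.24 FPKM in M14A plate, and 1.10, 0.995 and 1.14 FPKM in HepaRG plate. Printed libraries were the lowest and M14A plate libraries the highest, with no overlap. The fall after printing (-0.46, SE 0.13, adjusted p = 0.024) lost its call in 7 of 19 alternatives, among them those without M14A printed library 1 (-0.36, adjusted p = 0.14) and without M14A plate library 2 (-0.42, adjusted p = 0.073). NR5A2 (LRH-1), which in liver activates bile acid synthesis genes, was too low to test, at 0.306 and 0.253 FPKM in M14A printed, 0.116, 0.244 and 0.309 FPKM in M14A plate, and 0.169, 0.0806 and 0.196 FPKM in HepaRG plate. NR5A1, its steroidogenic paralog, had 3, 10 and 11 reads in M14A printed, M14A plate and HepaRG plate, and NR0B1 had no read in any library.

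The NR4A receptors are immediate early genes that act without a known ligand. NR4A1 had 1.69 and 1.5 FPKM in M14A printed, 0.969, 0.548 and 0.508 FPKM in M14A plate, and 0.240, 0.376 and 0.367 FPKM in HepaRG plate. The 3 groups stood in that order without overlap. It was higher in M14A printed (0.64, SE 0.15), a call lost without either printed library (0.59 and 0.69, adjusted p = 0.084 and 0.053), when only the compared groups were fitted (adjusted p = 0.058) and with equal totals (0.25, adjusted p = 0.15). Other genes cover 10.3% of its exon bases.

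NR4A2 had 1.28 and 1.45 FPKM in M14A printed, 0.457, 0.387 and 0.525 FPKM in M14A plate, and 0.562, 0.450 and 0.626 FPKM in HepaRG plate. Printed libraries were above all 6 flask libraries, which overlapped, and the printed mean was 2.99 times the plate mean (0.70, SE 0.13). NR4A1 and NR4A2 passed the filter through printed libraries alone, so their adjusted p-values of 0.014 and 0.0043 are descriptions, and with no filter they were 0.043 and 0.013. For NR4A2 the call was lost with equal totals (0.33, adjusted p = 0.062). NR4A3, by contrast, was at 0.166 and 0.0781 FPKM in M14A printed, 0.188, 0.130 and 0.161 FPKM in M14A plate, and 0.202, 0.0965 and 0.182 FPKM in HepaRG plate, all overlapping and below the filter.

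Printed cells had 3 of 10 other tested immediate early genes called higher and 3 called lower (median -0.36), where 17.7% of all genes were called higher and 15.5% lower. FOS averaged 76.1 ± 10.7 FPKM in M14A printed and 4.33 ± 2.14 FPKM in M14A plate (3.92, SE 0.28, adjusted p = 3.6e-04), FOSB averaged 8.34 ± 1.81 FPKM in M14A printed and 0.141 ± 0.0675 FPKM in M14A plate (3.02, SE 0.15, adjusted p = 2.1e-04), and KLF6 averaged 13.7 ± 2.19 FPKM in M14A printed and 37.3 ± 5.73 FPKM in M14A plate (-1.39, SE 0.16, adjusted p = 9.6e-04). FOSB lay below the filter level in M14A plate and reached it in M14A printed, so its call is a description. Between the lines, 4 were higher in M14A plate and 1 lower (median 0.59), led by EGR1 at 20.8 ± 9.41 FPKM in M14A plate and 3.67 ± 0.268 FPKM in HepaRG plate (2.14, SE 0.25, adjusted p = 3.3e-04), DUSP1 (1.11, adjusted p = 0.0024) and ATF3 (1.06, adjusted p = 0.0041). Of all genes, 16.1% were called higher and 14.7% lower in that comparison.

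**Figure D5:**
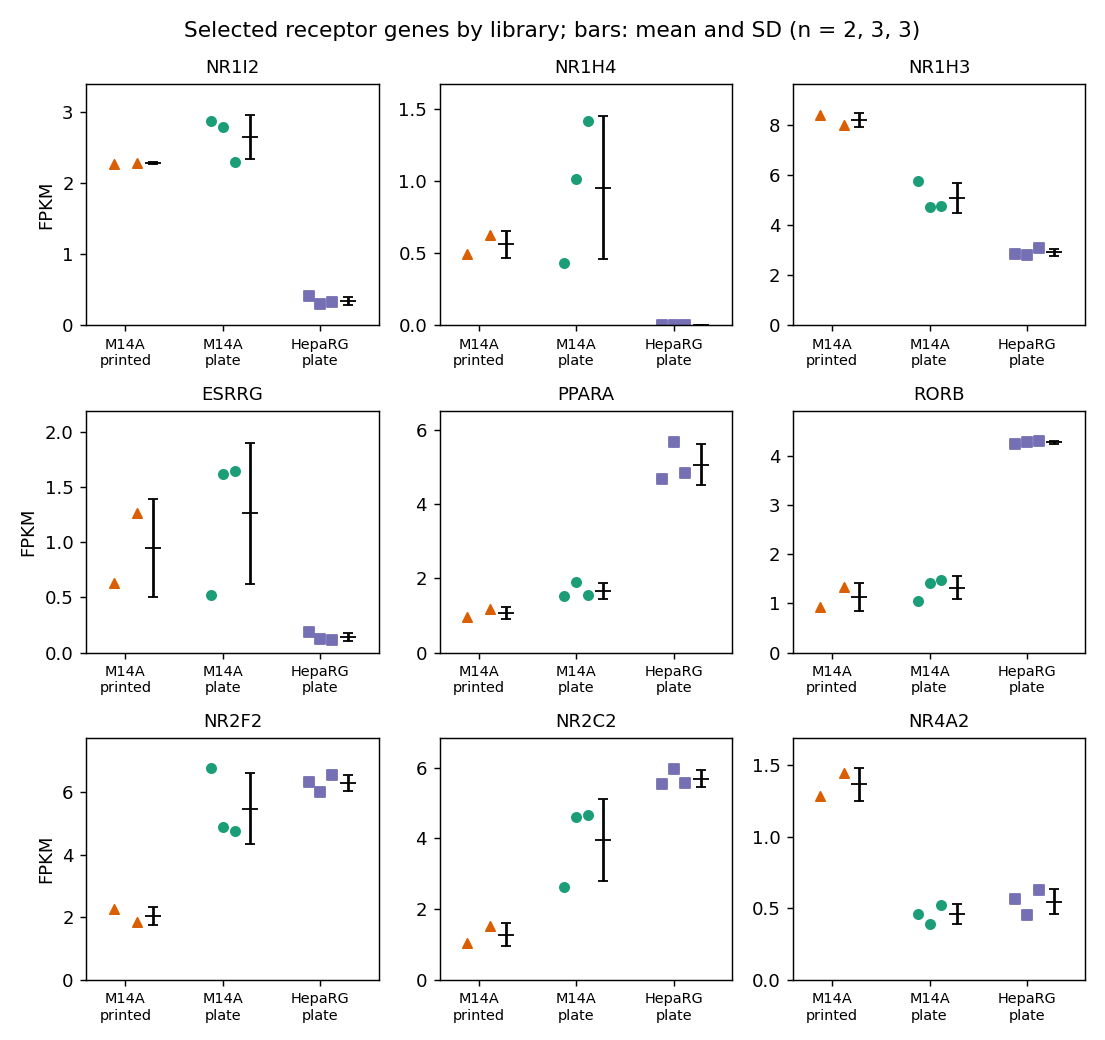
FPKM of 9 receptors by library, with M14A printed, M14A plate and HepaRG plate from left to right and bars for the mean and SD (n = 2, 3 and 3). NR1I2, NR1H4, NR1H3 and ESRRG are higher in M14A than in HepaRG plate, PPARA and RORB lower, and NR2F2, NR2C2 and NR4A2 separate the printed libraries from M14A plate.

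Coactivators and corepressors are the proteins through which receptors act on chromatin. Of 24 tested, 3 were called higher and 7 lower in M14A printed, with a median of -0.46, where 17.7% of all genes were called higher and 15.5% lower. With equal totals 0 were higher and 19 lower. The acetyltransferase EP300 averaged 0.703 ± 0.192 FPKM in M14A printed and 4.24 ± 0.425 FPKM in M14A plate (-1.62, SE 0.14, adjusted p = 5.0e-04). PPRC1 averaged 2.95 ± 0.109 FPKM in M14A printed and 11.0 ± 2.32 FPKM in M14A plate (-1.59, SE 0.16, adjusted p = 6.4e-04). Between the lines 1 was higher and 5 were lower in M14A plate (median -0.34), led by TBL1XR1 (-0.90, adjusted p = 0.023), NCOA7 (-0.89, adjusted p = 0.012) and PPARGC1A. Among the list genes named here, the calls of CLOCK, CYP3A5, MYLIP, TBL1XR1 and PPARGC1A between the lines were lost on leaving out some single library (adjusted p 0.055 to 0.13). After printing, 10 were lost in that way, those of ACAA2, ACADM, ALDH1A1, CPT1A, CRY2, FASN, IGFBP3, KLF9, MYLIP and SLC51B (adjusted p 0.053 to 0.23), and FASN fell by 0.88 on the log2 scale without M14A printed library 2 in place of 1.49. Without M14A plate library 1, TBL1XR1 was at -0.59 and CLOCK at -0.43, both called. With equal totals, the printed comparison kept genes called higher in only 2 of the 12 pathway lists, 3 immediate early genes and 1 retinoid gene.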

How the data were processed

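RNA was extracted with TRIzol and libraries were made with a NEBNext Ultra kit, per the labels' protocols. The submitters' processing notes name HISAT2 2.0.5 and featureCounts 1.5.0-p3, while strand setting and build were not given in the sources used here. Deposited values are FPKM for each library, scaled by the authors so that library totals differ (254141 to 514152). Positions of all 58735 genes equal those of GENCODE 29 and are given on its build, GRCh38. Every per-sample column was matched to a sample by name.

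From FPKM times gene length, 99.92 to 99.98% of non-zero values came out as whole reads within 0.01, which gave each library's depth. Genes reaching 1 FPKM in 2 or more libraries were kept. Their log2(FPKM + 1) values entered a single fit of all 8 libraries (limma 3.58.1, R 4.3.3, eBayes with trend, two-sided, Benjamini-Hochberg over 14349 genes, called below 0.05), checked on simulated reads. The simulated reads had no GC trend and no library that stood apart, so that check does not cover these features of the data. Replicates of a group differed by more than sampling noise (chi-square per degree of freedom 3.08 to 90.5). The members and lists were chosen with earlier results of these data known. Named genes are every member and, from each of 12 pathway lists, up to 3 called genes with the largest change, or the most abundant where none was called. A few that this rule names are not reported here. Alternatives numbered 18, and 2 more, added after the data were seen, remove the dependence of each library on transcript GC and gene length. Promoters come from RefSeq on GRCh38.p14.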

Additional observations from a re-analysis of the deposited data

How the results depend on the processing

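Between the lines, 7 of 12 called receptors kept their call in every alternative that tested them, and after printing 2 of 10 did. Of those 7, NR1I2, NR1H4 and ESRRG had passed the filter through M14A libraries alone, so their kept calls are descriptions. Counts of receptors called lower between the lines, 6 as reported, were 3 with no filter, 2 with a filter at 5 FPKM, 11 with equal totals, 11 with the GC and length trend removed and 14 with that and without M14A plate library 1; leaving out single libraries gave 3 to 11. Those called higher, 6 as reported, were 2 with the filter at 5 FPKM and 4 to 7 without single libraries. After printing, 3 receptors were called higher, and 1 with the filter at 5 FPKM, 0 with equal totals (1 at an unadjusted p under 0.05), 1 with only the compared groups fitted, 5 with the trend removed and 6 with that and without M14A plate library 1, with 1 to 4 without single libraries. The 7 called lower became 3 with no filter, 4 with the filter at 5 FPKM, 20 with equal totals, 2 with only the compared groups and 3 to 13 without single libraries. Over all genes, 2317 were called higher and 2112 lower between the lines: 1393 and 948 with the filter at 5 FPKM, and 1567 to 2912 and 1252 to 3220 without single libraries, while the lower count was 3362 with equal totals, 3235 with the trend removed and 3904 with that and without M14A plate library 1. After printing, 2544 were called higher and 2226 lower: 495 and 6620 with equal totals, 1062 and 954 with only the compared groups, 4454 and 3810 with the trend removed and without M14A plate library 1, 1260 lower with the filter at 5 FPKM, and 1202 to 4045 and 1228 to 3866 without single libraries. The causes were not tested, except that the filter at 5 FPKM tests fewer genes. Equal totals moved the median of all genes to -0.20 between the lines, where 38.0% of called genes were higher against 52.3%, and to -0.51 after printing. Sign changes are listed only for genes called in the main fit or in the alternative, and those of other genes are left out. After printing with equal totals, ESRRA (-0.64), RXRB (-0.45), THRA (-0.68) and NR1H3 (-0.055) changed sign, as did ACAA2 (-0.037), ALDH1A1 (-0.16), CYP27A1 (-0.0099) and MYLIP (-0.17). Under quantile normalization, ALDH1A1 (-0.33) and IGFBP4 (-0.58) did. Deviations of same-numbered libraries correlated at -0.0708, 0.0808 and -0.155 between the lines, so the numbers were not taken as pairs there. For printed and plate libraries they correlated at 0.487 and 0.365, but 2 printed libraries mirror each other and give only 2 pairs, so pairing was neither shown nor excluded. With a replicate block, 5 receptors were called higher and 6 lower between the lines, and 3 higher and 5 lower after printing, and 2257, 2162, 2286 and 2094 of all genes in the same order. With 2 printed libraries, their spread is taken mostly from the other groups, and receptors under 1 FPKM rest on few reads.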
